A study of Mus musculus with 6 samples.

Results

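The genes described here make glucose, take up fructose carbon and release ammonia in the kidney: Pck1, Pck2, G6pc, Fbp1, Pcx, Glud1, Slc38a3 and Khk. They were chosen by name, and every probe set whose platform annotation gives 1 of these 8 symbols as its only gene was taken, which found 17 of the 45101 rows of the array table. All 8 genes were found. Of the 17 rows, 13 are ordinary probe sets and 4 are rows of the array's control panel that carry the symbol Pcx. Kidney RNA came from 6 male mice aged 10 weeks, 1 Affymetrix array per animal. In 3 mice, heterozygous for the introduced allele, the soluble intracellular domain of megalin (ICD) was expressed, and 3 wild type littermates served as controls. Megalin, encoded by Lrp2, is the endocytic receptor of the proximal tubule, and the comparison asks whether its freed tail changes kidney transcripts. The promoter that drives the allele, the strain of the mice and the segment of Lrp2 it carries are not given in the sources used here. Labels number the animals as biological replicates.

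Kidney is, beside liver, the organ that releases newly made glucose into blood, and it does so in the proximal tubule from lactate, glutamine and glycerol. Pyruvate carboxylase (Pcx) makes oxaloacetate in mitochondria, the phosphoenolpyruvate carboxykinases (Pck1 in the cytosol, Pck2 in mitochondria) turn it into phosphoenolpyruvate, fructose-1,6-bisphosphatase (Fbp1) passes the glycolytic block, and glucose-6-phosphatase (G6pc) frees glucose. Glutamine enters from blood through Slc38a3 and its nitrogen leaves as ammonia, in part through glutamate dehydrogenase (Glud1), which ties ammonia production to gluconeogenesis in acidosis. Ketohexokinase (Khk) phosphorylates fructose and opens its use in the same cells.

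Promoters are shown for Pck1 and G6pc, the members known best as targets of cAMP and insulin, and the only ones among the 7 member genes with a promoter in the RefSeq table (GRCm38.p6) that held the motif below. Each run is the 250 bases before the gene's start, 5′ to 3′ on the gene's strand, from chr2:173152823-173153072 (plus strand) for Pck1 and chr11:101367466-101367715 (plus strand) for G6pc. Capitals mark TTACGTNA, a variant of the cAMP response element, searched on both strands.
Pck1: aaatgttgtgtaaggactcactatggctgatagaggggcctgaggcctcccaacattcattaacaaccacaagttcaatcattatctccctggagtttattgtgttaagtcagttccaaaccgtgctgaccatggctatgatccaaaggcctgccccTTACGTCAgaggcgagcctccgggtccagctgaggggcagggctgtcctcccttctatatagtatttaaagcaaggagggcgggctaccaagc
G6pc: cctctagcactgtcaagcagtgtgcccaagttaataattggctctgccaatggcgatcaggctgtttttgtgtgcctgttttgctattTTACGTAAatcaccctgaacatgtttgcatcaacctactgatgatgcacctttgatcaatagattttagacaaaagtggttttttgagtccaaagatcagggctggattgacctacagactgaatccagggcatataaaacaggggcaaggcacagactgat
The motif began at -93 from the gene's start in Pck1 and at -162 in G6pc. Among 32851 mouse promoter windows of the same length 0.788% held TTACGTNA, and the palindrome TGACGTCA, in 1.55% of windows, was in none of the members. Both motifs were chosen after the sequences were seen, and a match is a description of letters, not a site in use.

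Values are RMA summaries on the log2 scale, so a difference of 1 is a doubling, and differences are ICD minus wild type. A probe set passed the test at a limma adjusted p under 0.05, adjusted over 45037 probe sets. Across all of them 0 passed (0%), 2641 or 5.86% had an unadjusted limma p under 0.05, and the groups did not overlap for 10.5%, made up of 5.44% with ICD above and 5.05% with ICD below. Correlations between arrays lay between 0.995 and 0.997. The array labelled wild type 3 stood apart in markers of the early proximal tubule: of 10 such markers 7 were lowest on it, and the list's mean deviation was -0.62 there and -0.010 to 0.23 on the other arrays. Lrp2 does not check the labels fully. Its probe set 1452320_at read 12.77 to 12.93 on all 6 arrays. The dimmer 1445901_at read 6.83 to 7.21 on ICD and 6.62 to 7.23 on wild type arrays, with overlap. By contrast, 1427133_s_at read 12.25 to 12.37 on ICD arrays and 13.01 and 12.97 on wild type 1 and 2. It read 12.13 on the array labelled wild type 3. Members' differences, and counts and medians of lists, that turn or move by over 1.5 times without that array are given with and without it. In whole kidney, fewer cells of a type and less RNA per cell cannot be told apart.

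None of the 13 probe sets passed the test, and the members' differences were small. Of these, 11 were higher in ICD kidneys and 2 lower, with a median difference of 0.047, where all probe sets had a median of -0.0061 and 47.2% were higher. Wild type 2 was the members' low array: 11 of 13 probe sets lay below their own 6-array mean on it, beside 51.1% of all probe sets, and 5 of 13 were lowest there, beside 17.6%. Without wild type 2 the higher count was 9 of 13 (median 0.033), and with any other single array left out it was 9 to 12 of 13. Adjusted p ran from 0.837 to 0.9999 (limma). An unadjusted limma p under 0.05 was reached by 1 of 13, beside the background of 5.86%. The groups did not overlap for 3 of 13, in Pck1, Fbp1 and Pcx and with ICD above in each, beside 5.44% of all probe sets in that direction. Probe sets of the same gene share its annotation, were read in the same 6 animals and are not independent. These counts are therefore a description and not a test. Each 95% interval is for 1 probe set and is not adjusted for the 13 read, so together they do not bound what the 6 arrays could miss. Among them the lowest end was -0.60 (Slc38a3) and the highest 0.56 (Pck1). Interval widths to either side ran from 0.14 to 0.51, with a median of 0.19.

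**Figure D1:**
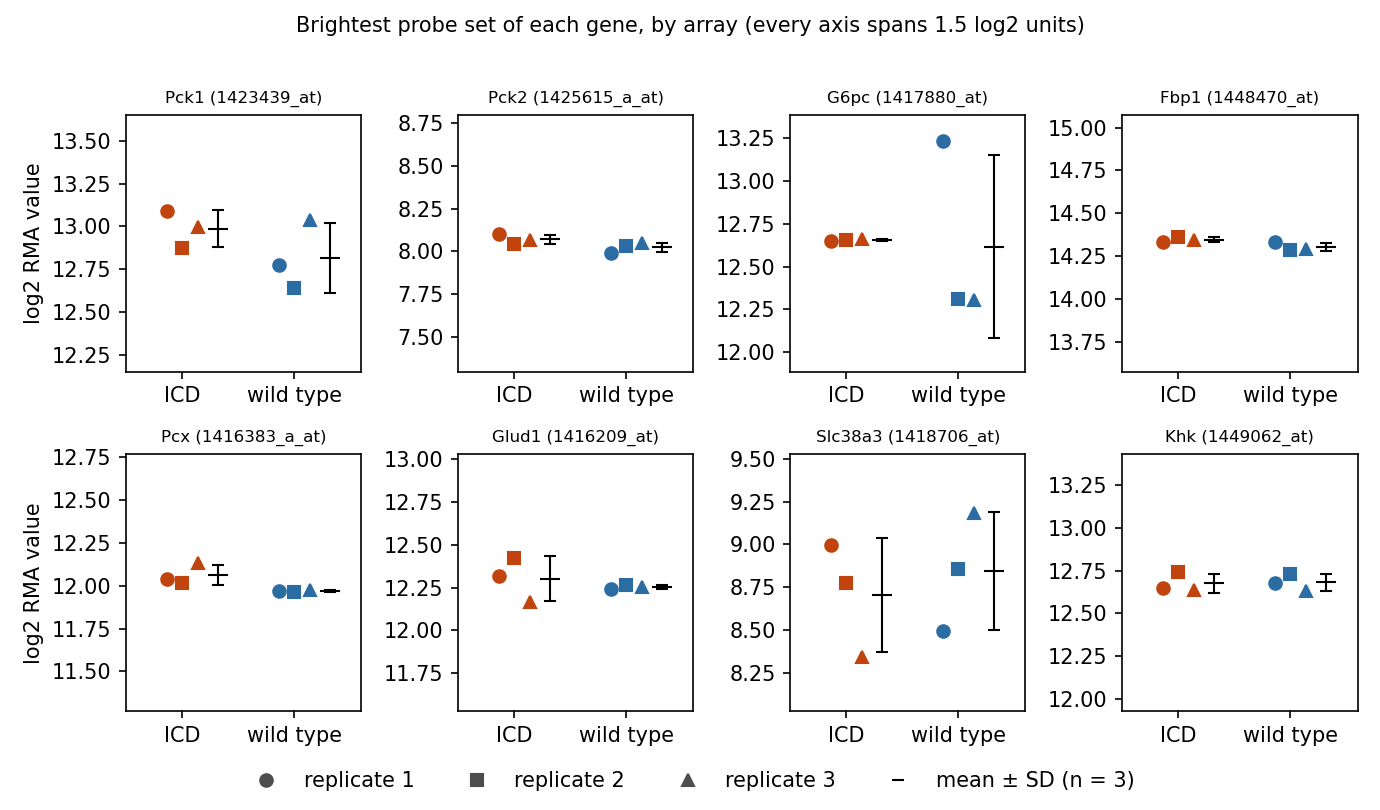
Each panel plots the log2 RMA value of the brightest probe set of 1 gene on each of the 6 arrays (circles, squares and triangles for replicates 1, 2 and 3), with the mean ± SD of each group of 3; every vertical axis spans the same 1.5 log2 units. G6pc spread widely between wild type animals only and Slc38a3 between animals of both groups, whereas Fbp1, Khk and Pck2 hardly moved.

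Pck1, the cytosolic carboxykinase whose transcription is the classic control point of renal gluconeogenesis, had the largest difference among the members. Its probe set 1439617_s_at read 12.24, 11.93 and 12.02 in ICD kidneys and 11.84, 11.54 and 11.92 in wild type kidneys. All 3 ICD arrays lay above all 3 wild type arrays, but ICD 2 and wild type 3 were separated by less than 0.01. The means were 12.06 ± 0.16 (SD, n = 3) and 11.77 ± 0.20, a difference of 0.29 ± 0.12 (SE), or 1.22-fold with a 95% interval of 1.02 to 1.48, at an unadjusted limma p of 0.0371 and an adjusted p of 0.837. A larger absolute difference was measured at 2.61% of all probe sets. The ending s marks, in Affymetrix's naming, probes that can match more than 1 transcript. The brighter probe set 1423439_at read 13.09, 12.87 and 13.00 in ICD and 12.77, 12.64 and 13.04 in wild type kidneys. There the groups overlapped, because wild type 3 stood above ICD 2 and ICD 3, and the difference was 0.17 ± 0.11 (SE; interval -0.082 to 0.42, limma adjusted p = 0.932). Both probe sets were lowest on wild type 2 and highest on ICD 1. Without wild type 2 the differences were 0.18 and 0.081, and without wild type 3 they were 0.37 and 0.28. The remaining probe set, 1455209_at, was dim at 4.50 to 4.69, brighter than only 15.5% of probe sets, and differed by 0.029 (interval -0.15 to 0.21). Its sign turned without ICD 3 or wild type 2 (-0.0077 and -0.016), and leaving out wild type 3 gave 0.076.

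Pck2, the mitochondrial carboxykinase, was flat. Its brighter probe set 1425615_a_at read 8.10, 8.04 and 8.07 in ICD and 7.99, 8.03 and 8.05 in wild type kidneys. All 6 animals lay within 0.11 of each other, and the group means differed by 0.047 (95% interval -0.096 to 0.19, limma adjusted p = 0.981). At the dimmer 1452620_at the means lay 0.057 apart (interval -0.13 to 0.25), -0.00037 without wild type 1 and 0.13 without wild type 3.

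Pyruvate carboxylase, which feeds both carboxykinases with oxaloacetate, was higher in ICD kidneys at each of its 5 rows by amounts that did not pass the test. Probe set 1416383_a_at read 12.04, 12.02 and 12.13 in ICD and 11.97, 11.97 and 11.98 in wild type kidneys. No ICD array lay below a wild type array there, the wild type arrays lay within 0.012 of each other, and the means differed by 0.091 ± 0.065 (SE; interval -0.058 to 0.24, limma adjusted p = 0.942). The 4 control rows, which by their names read the transcript's 3′ end, its middle (MA and MB) and its 5′ end, were fitted with all 45101 rows in an alternative added after the data were seen. The 3′ row differed by 0.097, the middle rows MB and MA by 0.19 and 0.17, and the 5′ row by 0.12. Among these MB had the smallest limma p, 0.0204 unadjusted and 0.766 adjusted, with 9.91, 10.01 and 10.00 in ICD and 9.83, 9.73 and 9.78 in wild type kidneys. At the 3′, MB and MA rows the groups did not overlap, whereas at the 5′ row ICD 1 (8.33) lay below wild type 2 and 3 (8.38 and 8.33). All 5 rows read the same transcript in the same 6 animals and count once.

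These control rows also give a reading of RNA integrity within a member. The 3′ reading of Pcx minus its 5′ reading was 4.27, 4.01 and 4.15 on ICD arrays and 4.23, 4.06 and 4.21 on wild type arrays, means of 4.15 ± 0.13 (SD, n = 3) and 4.17 ± 0.095. The groups overlapped, as they did for Gapdh (0.12 to 0.17 in ICD, 0.15 to 0.18 in wild type) and Actb (0.87 to 0.96 and 0.82 to 1.00).

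Fbp1, which removes a phosphate from fructose-1,6-bisphosphate, was the steadiest member. It read 14.33, 14.36 and 14.34 in ICD and 14.33, 14.29 and 14.29 in wild type kidneys (1448470_at). The 6 animals spanned 0.073, close to the top of the array's range of 15.11, where a probe set can approach saturation. ICD 1 lay above wild type 1 by less than 0.001, so the groups did not overlap only in the narrowest sense. The means differed by 0.041 (interval -0.10 to 0.18, limma adjusted p = 0.983).

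G6pc, the enzyme of the last step, showed a spread among wild type animals that its ICD littermates did not share. ICD kidneys read 12.65, 12.65 and 12.66 and wild type kidneys 13.23, 12.31 and 12.31 (1417880_at). The 3 ICD animals spanned 0.014, whereas the 3 wild type animals spanned 0.93, with wild type 1 above and wild type 2 and 3 below all ICD animals. The difference between the group means was 0.039 ± 0.22 (SE), 1.03-fold with an interval of 0.72 to 1.46 (limma adjusted p = 0.997). It became 0.35 without wild type 1, -0.11 without wild type 2 and -0.12 without wild type 3. Whether the spreads of the groups differ was not tested, since the design has 3 animals a group.

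**Figure D2:**
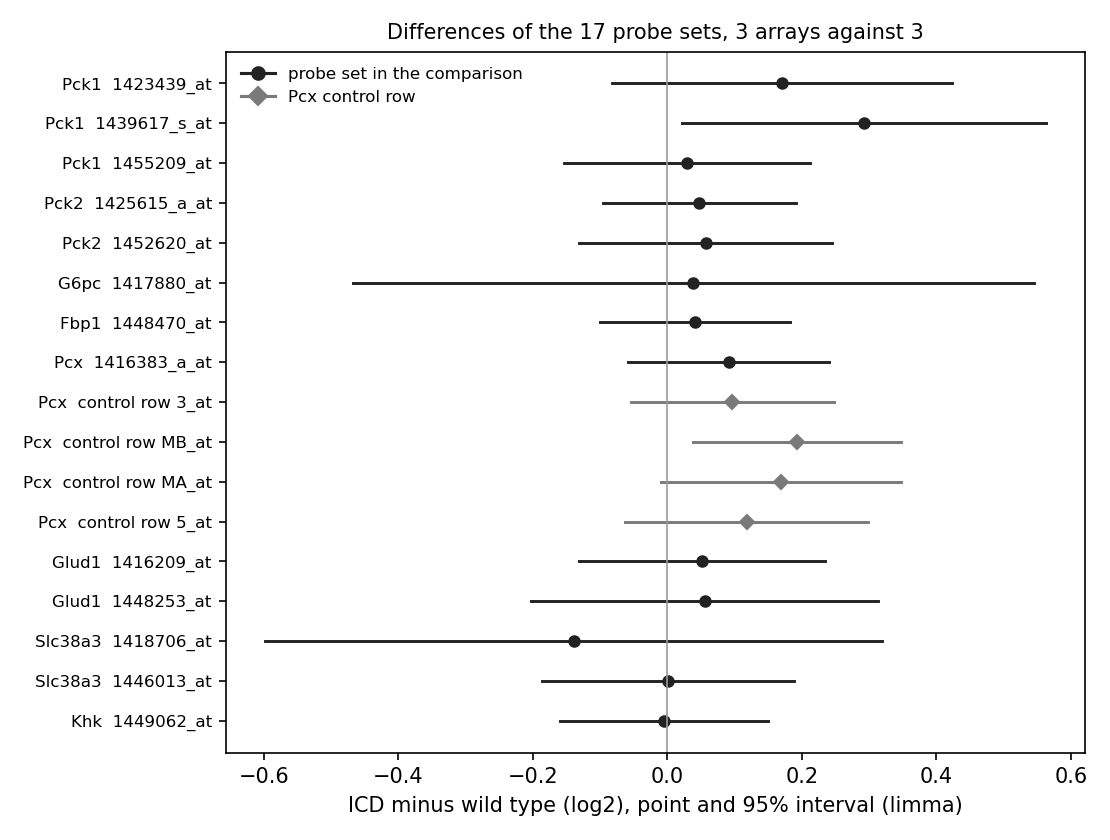
Points give the ICD minus wild type difference (log2) of each of the 17 rows and lines its 95% limma interval; circles are the 13 probe sets and grey diamonds the 4 Pcx control rows. Intervals lie clear of 0 for the Pck1 probe set 1439617_s_at and the Pcx row MB alone, and neither passed after adjustment.

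On the side of glutamine and ammonia, Slc38a3, the basolateral glutamine carrier that rises in acidosis, differed by -0.14 ± 0.20 (SE; interval -0.60 to 0.32, limma adjusted p = 0.981). Its brighter probe set 1418706_at read 9.00, 8.77 and 8.34 in ICD and 8.50, 8.86 and 9.18 in wild type kidneys. Animals of both groups covered nearly the same range, from ICD 3 at the bottom to wild type 3 at the top. The difference was 0.042 without ICD 3, 0.030 without wild type 3 and -0.31 without wild type 1. At the dimmer 1446013_at the means differed by 0.0011 (interval -0.19 to 0.19), and its lowest array, wild type 3, was the highest at the brighter one. Its sign also turned under other scalings, to -0.0070 after repeated quantile normalization and -0.0064 after centring on array medians, and was -0.056 with wild type 3 left out.

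Glud1, which releases ammonia from glutamate in mitochondria, was read by a pair of bright probe sets that differed by 0.051 (1416209_at, interval -0.13 to 0.23) and 0.055 (1448253_at, interval -0.20 to 0.31). The latter read 12.19, 12.43 and 12.00 in ICD and 12.14, 12.06 and 12.26 in wild type kidneys. ICD 2 was the highest and ICD 3 the lowest array at both probe sets. Without ICD 2 the differences were -0.0094 and -0.056, so their sign rested on that animal. Leaving out wild type 3 gave 0.11 at 1448253_at.

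Khk, the entry enzyme of fructose, read 12.65, 12.74 and 12.64 in ICD and 12.68, 12.73 and 12.63 in wild type kidneys (1449062_at). The means differed by -0.0054, with an interval of -0.16 to 0.15 or 0.90- to 1.11-fold (limma adjusted p = 0.998). The sign was positive after repeated quantile normalization (0.0017) and without ICD 1, ICD 3 or wild type 2 (0.0087, 0.014 and 0.019), and the difference was -0.029 without wild type 3.

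On the array labelled wild type 3 the early proximal markers spread widely, and the members lay within the range of the less affected ones or above it. Relative to the mean of the other 5 arrays, that array read -2.65 for the phosphate transporter Slc34a3, -1.34 for the glucose transporter Slc5a2, -1.32 for the creatine enzyme Gatm and -1.14 for the anion transporter Slc22a8. It read -0.52 for the glucose carrier Slc2a2 and -0.24 for the phosphate transporter Slc34a1, and -0.064 to -0.035 for Lrp2, Cubn, Slc22a6 and Hnf4a. At their brightest probe sets Fbp1 read -0.038, Pcx -0.047, Khk -0.054 and Glud1 -0.030 by the same measure. Pck1 read 0.16, above the mean of the other arrays but below ICD 1, and Slc38a3 read 0.49, above each of the other arrays. G6pc read -0.40, between Slc2a2 and Slc34a1 and level with wild type 2. Among the 13 probe sets 3 were lowest on wild type 3, beside 16.8% of all probe sets. The part of the early segment's markers in the members' values was not tested.

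**Figure D3:**
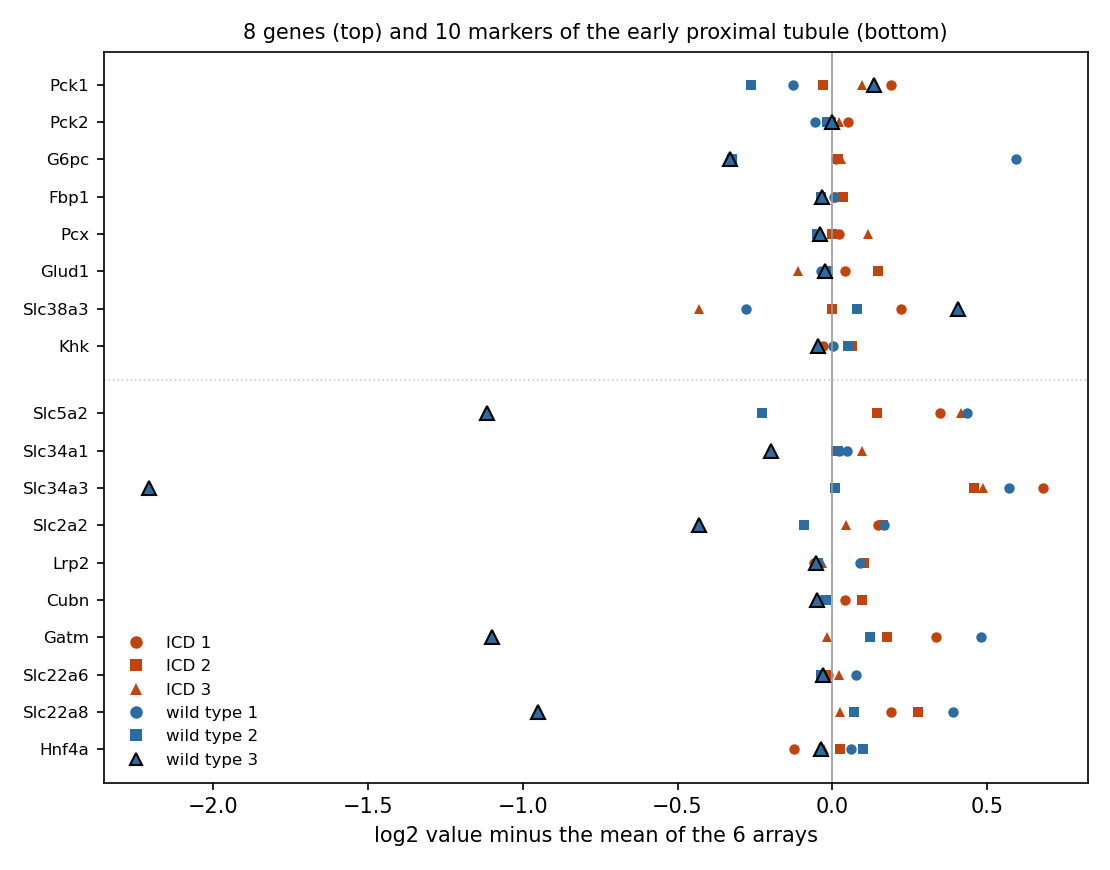
Each row plots 1 gene, centred on its mean over the 6 arrays (log2), for 8 members (top) and 10 early proximal markers (bottom); wild type 3 is outlined in black. Slc34a3, Slc5a2, Gatm and Slc22a8 lie over 1 log2 unit below the mean of the other arrays on it, whereas no member does.

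Markers of other cells were read beside these values. Late proximal markers, the segment where Slc38a3 is found in kidneys without acidosis, were higher for 3 of 6, with list means of -0.14 to 0.081 on ICD and -0.10 to 0.13 on wild type arrays. Their list mean, like Slc38a3 at 1418706_at, was lowest on ICD 3 and highest on wild type 3. At the dimmer Slc38a3 probe set 1446013_at, wild type 3 was the lowest array and wild type 1 the highest. Adipose markers, which matter because fat cells also use Pck1 and Pcx, were higher in ICD kidneys for 6 of 7 (median 0.24), with list means of -0.19 to 0.26 on ICD and -0.53 to 0.15 on wild type arrays. Without wild type 3 the adipose median was 0.44. By array the adipose means were 0.20, 0.26 and -0.19 in ICD and -0.53, 0.15 and 0.10 in wild type kidneys, and Pck1 1423439_at stood at 0.19, -0.029 and 0.095 and at -0.13, -0.26 and 0.13 from its 6-array mean. Podocyte markers were higher for 6 of 6 (median 0.46), with list means of 0.14 to 0.27 on ICD and -0.32 to -0.083 on wild type arrays. The groups did not overlap for 6 of 6, with ICD above in each, beside 5.44% of all probe sets in that direction. All 6 had an unadjusted limma p under 0.05, beside 3.94% of all genes read at their brightest probe set. Of the 6, 0 passed (adjusted p 0.642 to 0.725). The part of these markers in the members' values was not tested.

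Members also differed in how they ordered the 6 animals. At their brightest probe sets Pearson's r over the 6 arrays, given as a description, was 0.76 for Pck1 with Pck2 and -0.76 for Pck1 with Khk. For Pck1 with G6pc, the pair whose promoters share the motif, it was -0.10 with all arrays and 0.098 without wild type 3, and for G6pc with Slc38a3 -0.64. Genes most like each member were sought among 3713 genes of at least median brightness and spread; with so many candidates and 6 points high values are easily reached. The highest values were those of Atxn7l1 (0.96) and Acvr2b (0.95) for Pck1, Bach1 (0.97) and Nufip2 (0.96) for Pck2, C1qtnf12 (0.98) and Ptgr1 (0.97) for G6pc, and Lrrc19 (0.99) and Ppargc1a (0.98) for Fbp1. Pcx was closest to Rnd2 and Dusp23 (0.97 each), Glud1 to Ric8b and Ptpdc1 (0.98 each), Slc38a3 to Oxgr1 and Hopx (0.99 each), and Khk to Gramd1b (0.99) and Acad8 (0.98).

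Genes around the members in the same pathways were read at the brightest probe set of each, and 0 of the 68 measured genes passed the test. An unadjusted limma p under 0.05 was reached by 7 of the 68, where 716 of 18193 genes read this way, or 3.94%, reached it. Over all these genes the median difference was -0.012 and 43.9% were higher, and for the 8 members the median was 0.044 with 6 higher.

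Other enzymes of gluconeogenesis and glycolysis were higher for 10 of 24 measured genes and lower for 14, with a median of -0.022. Of these enzymes 2 had an unadjusted limma p under 0.05, beside 3.94% of all genes read this way. Without wild type 3 they were higher for 13 of 24, with a median of 0.011. Pfkp, a phosphofructokinase of the glycolytic direction, differed by -0.35 ± 0.13 (SE; adjusted p = 0.8), and by -0.22 without wild type 3, its highest array. Hexokinase Hk1 differed by -0.16 ± 0.067 (adjusted p = 0.844), with 10.70 to 10.76 in ICD and 10.82 to 10.95 in wild type kidneys. The alanine aminotransferase Gpt2 differed by 0.16 ± 0.15.

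Fructose and polyol genes lay near 0, with 4 of 5 higher and a median of 0.011 (0.026 without wild type 3). The triokinase Tkfc, which acts after Khk, differed by 0.043 ± 0.081 (SE), the fructose transporter Slc2a5 by 0.030 ± 0.14 and the urate and sugar transporter Slc2a9 by -0.097 ± 0.084.

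Among genes of glutamine use and ammonia transport 6 of 11 were higher (median 0.019, and 0.0040 without wild type 3). Slc6a19, which recovers neutral amino acids from the filtrate, read 11.15, 11.09 and 11.07 in ICD and 10.81, 10.63 and 9.43 in wild type kidneys. Groups were apart, and the difference of 0.81 ± 0.31 (SE; limma adjusted p = 0.809) became 0.38 without wild type 3. Slc4a4, the basolateral bicarbonate carrier, differed by 0.21 ± 0.089 (adjusted p = 0.843; 0.14 without wild type 3), and the sodium/proton exchanger Slc9a3 by 0.11 ± 0.081.

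Among carriers of lactate, carboxylates and glycerol 1 gene stood apart from the members on the array labelled wild type 3. Slc5a12, a sodium-coupled lactate carrier of the early proximal tubule, read 9.30, 9.27 and 10.47 in ICD, 10.35 and 9.82 in wild type 1 and 2, and 4.12 on the array labelled wild type 3. Its difference was 1.58 ± 1.41 (SE; limma adjusted p = 0.96) with all arrays and -0.41 without wild type 3. Slc16a7, a monocarboxylate carrier, differed by -0.12 ± 0.098 and the glycerol channel Aqp7 by -0.054 ± 0.070. In all, 5 of these 8 genes were higher, with a median of 0.013, and 3 of 8 without wild type 3, with a median of -0.0056.

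Regulators of gluconeogenic transcription were higher for 13 of 20 (median 0.066, and 0.035 without wild type 3). An unadjusted limma p under 0.05 was reached by 3 of 20, all higher in ICD kidneys, beside 3.94% of all genes read this way. Of the 20, 8 were lowest on wild type 3, Ppargc1a and Ppara among them, beside 16.8% of all probe sets. Ppargc1a, the coactivator that induces Pck1 and G6pc in fasting liver, read 10.80, 11.08 and 10.82 in ICD and 10.78, 10.40 and 10.28 in wild type kidneys. All ICD arrays lay above all wild type arrays, though ICD 1 only narrowly above wild type 1. The means differed by 0.41 ± 0.14 (SE; limma adjusted p = 0.738; 0.31 without wild type 3). Ppara, a fasting receptor, differed by 0.50 ± 0.17 (adjusted p = 0.744; 0.34 without wild type 3) with overlap. Irs2, a docking protein of the insulin receptor, read 7.25, 7.37 and 7.78 in ICD and 7.13, 6.73 and 7.11 in wild type kidneys, without overlap, a difference of 0.48 ± 0.15 (adjusted p = 0.725).

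**Figure D4:**
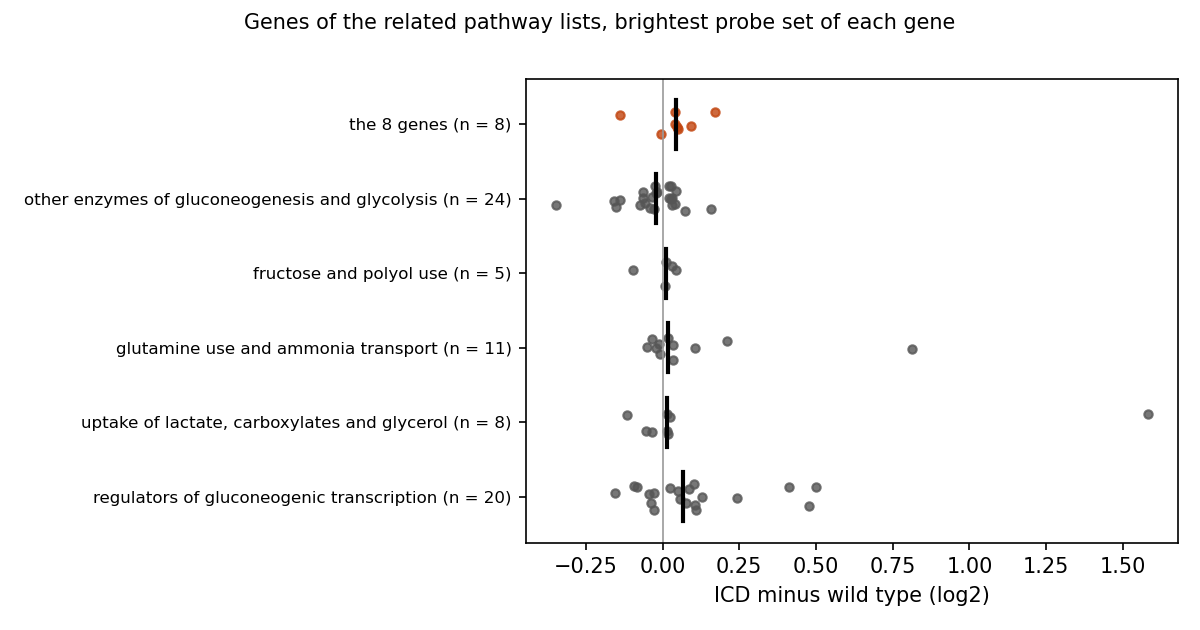
Points are the ICD minus wild type differences (log2) of single genes at their brightest probe set, for the 8 members (red) and 5 related lists (grey), with a black bar at each median. Medians lie between -0.022 and 0.066, and the far right point, Slc5a12 at 1.58, rests on wild type 3.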

How the data were processed

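Per the submitters' processing notes the authors made the deposited log2 values with RMA, which corrects background, gives all arrays 1 distribution and summarises each probe set. Version, chip definition and filters are not given in the sources used here. RMA compresses differences of dim or near-saturated probe sets. Genes were named from the platform annotation, checked by Entrez identifiers against RefSeq (0 symbols updated). The main comparison leaves out 64 control rows. It was fitted in limma 3.58.1 under R 4.3.3 (lmFit, eBayes, genotype as the only term, 2-sided, Benjamini-Hochberg over 45037 probe sets), a fit also tested on simulated data. With 6 arrays, their number limits the precision. The brightest probe set has the highest mean over all arrays. A list mean averages the log2 value minus the 6-array mean over the list's genes. Named were all member probe sets, in each pathway list the genes with unadjusted p under 0.05 and the 3 largest differences, and per member the 2 best correlated genes. Members and lists were chosen with earlier results of these data known. Alternatives were other scalings, priors, filters and weights, a replicate block, and each array left out.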

Additional observations from a re-analysis of the deposited data

How the results depend on the processing

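The count of 0 member probe sets past the threshold held in every alternative that was run (repeated quantile normalization, centring on array medians, a trended and robust prior, bright probe sets only, which keeps 11 of the 13, array weights, the replicate block, control rows included, and each array left out). The smallest adjusted p of a member was 0.435 (limma), for G6pc without wild type 1. The members' median difference ran from 0.033 to 0.059 with 1 array left out. Over the whole table the count of probe sets past the threshold was 0 in the main comparison, 1 with a trended and robust prior, and 0 to 1 with 1 array left out. Of 171 single values under alternatives, 153 kept their sign and 18 turned it. The prior, the brightness filter, the replicate block and the control rows leave each difference unchanged. Signs could not turn under these alternatives, so the count of kept signs is no measure of robustness. Under repeated quantile normalization Slc38a3 1446013_at turned to -0.0070 and Khk to 0.0017, and under median centring Slc38a3 1446013_at to -0.0064. With 1 array left out the ranges that crossed 0 were -0.12 to 0.35 (G6pc), -0.0094 to 0.12 (Glud1 1416209_at), -0.056 to 0.16 (Glud1 1448253_at), -0.039 to 0.019 (Khk), -0.016 to 0.081 (Pck1 1455209_at), -0.00037 to 0.13 (Pck2 1452620_at), -0.31 to 0.042 (Slc38a3 1418706_at) and -0.056 to 0.063 (Slc38a3 1446013_at). The cause was not tested. Same-numbered arrays showed no shared deviation from their group means, with correlations of -0.0057, 0.0077 and -0.047. With 3 arrays a group, these values cannot show whether the animals were paired. With the replicate block 0 members passed, and their smallest adjusted p was 0.768.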

Other observations

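Lists of markers not described above showed no gene past the limma threshold. Thick ascending limb markers were higher in ICD kidneys for 2 of 7 (median -0.031) and collecting duct markers for 3 of 8 (median -0.081). Without the array labelled wild type 3 these were 3 of 7 (-0.016) and 4 of 8 (-0.016). Endothelial markers were higher for 8 of 8 (median 0.10), with 7 of 8 lowest on the array labelled wild type 3 and the highest list mean, 0.26, on wild type 1. Leaving out wild type 3, endothelial markers were higher for 3 of 8 (median -0.036). Adrenal cortex markers were higher for 3 of 8 (median -0.067), and for 1 of 8 (-0.046) without that array. Myeloid markers were higher for 3 of 7 (median -0.010), and for 4 of 7 (0.044) without it. Liver markers, an organ that shares Pck1, G6pc, Fbp1 and Khk with kidney, were higher for 6 of 7 (median 0.035, and 0.076 without that array), with list means of -0.096 to 0.10 on ICD and -0.071 to 0.018 on wild type arrays. Early proximal markers were higher for 8 of 10 (median 0.16), with 0 of 10 at an unadjusted limma p under 0.05. Without the array labelled wild type 3 they were higher for 5 of 10, with a median of -0.0028.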
